A study of Mus musculus with 2 samples.

Results

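Ccr2, Ccr3, Ccr4, Ccr8, Ccr9, Cxcr3, Cxcr4, Cxcr5 and Cxcr6 are the 9 genes described here, out of 28692 in the deposited count matrices. They were chosen by name, as the chemokine receptors that steer T cells towards particular tissues. Their transcripts were read from raw counts of unique molecular identifiers (UMIs, the tags that mark single captured transcripts) in regulatory T cells (Tregs), the CD4 T cells that express Foxp3 and restrain immune responses. The cells came from spleens of male Pparg-Tdt.Foxp3-Gfp mice, 8 weeks of age, which carry a red reporter for Pparg and a green one for Foxp3. Tregs low in the red reporter were sorted for the PPARg-low library, and Tregs negative for it for the PPARg-negative library. Each library came from the pooled spleens of 2 or 3 mice, and the sort defined a group only by how bright the red reporter was. The label names the PPARg-low group by that word although its deposited files carry the tag pos, and the label is followed. With 1 library per group no difference below has a replicate check or a p-value, and every interval covers counting error only.

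Chemokine receptors are membrane proteins with helices that cross the membrane and couple to inhibitory G proteins. Cells follow rising concentrations of the ligand, and the set of receptors on a T cell decides which tissues and niches it can enter. Cxcr3 binds the interferon-induced chemokines Cxcl9 and Cxcl10 and leads to sites of type 1 inflammation. Ccr4 and Ccr8 direct T cells to skin and barrier tissues, Ccr2 to sites where monocytes gather, Ccr9 to the small intestine through its ligand Ccl25, Cxcr5 to B cell follicles through Cxcl13, and Cxcr4 to tissues rich in Cxcl12. Cxcr6 binds Cxcl16 and is known from tissue-resident T cells, while Ccr3, the eotaxin receptor, is best known from eosinophils.

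The cells kept, those with at most 10% mitochondrial UMIs, numbered 1619 in the PPARg-low and 2633 in the PPARg-negative library. They held 2901710 and 5897260 UMIs, with medians of 1517 and 2171 per cell, and the libraries shared 5 barcode sequences. Cells with under 20% ribosomal protein UMIs, called ribosome-poor here, made up 58.7% of PPARg-low cells (exact binomial 95% interval 56.3 to 61.2%) and 23.3% of PPARg-negative cells (21.7 to 24.98%). They were shallower than the ribosome-rich cells, with medians of 978 against 2294 UMIs per cell in the PPARg-low and 853 against 2455 in the PPARg-negative library. Their median mitochondrial share was higher, at 6.80 against 2.74% in the PPARg-low and 6.92 against 2.29% in the PPARg-negative library. All 6 Treg markers were detected in both libraries, and their summed level was 4689 CPM (counts scaled to a library total of 1000000 UMIs) in the PPARg-low and 2148 CPM in the PPARg-negative library. The mast cell and eosinophil markers Cpa3, Mcpt8, Siglecf and Epx were at 0 in both, as were the platelet markers Pf4 and Ppbp and the macrophage and neutrophil genes Adgre1, S100a8 and S100a9. The 7 myeloid markers summed to 276 CPM in PPARg-low and 148 CPM in PPARg-negative cells, nearly all of it from Cst3, and the 5 B cell markers to 33.8 and 29.0 CPM. Effector Treg markers were all higher in the PPARg-low library (15 of 15; 5258 against 882 CPM) and resting Treg markers all lower (12 of 12; 786 against 2672 CPM), by a ratio of at least 1.5 or its inverse and an exact 95% interval on that side of 1. Of all 9224 genes with 30 or more UMIs, 24.2% were called higher and 4.47% lower by the same rule. Within ribosome-poor cells 11 of the 15 effector markers were higher. Icos and Maf, at ratios of 1.02 and 1.17, and Itgae and Gzmb were not called there. All 9 resting markers with 30 or more UMIs in ribosome-poor cells were lower. Of all 6540 genes measured in these cells 6.82% were higher and 5.4% lower. The markers' part in the receptor differences was not tested.

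Of the 9 receptor genes, 7 lie on mouse chromosome 9 (mm10; GENCODE M21 annotation). Ccr9 (9:123678439-123784330, plus strand), Cxcr6 (9:123806475-123811760, plus), Ccr3 (9:124021972-124031689, plus) and Ccr2 (9:124101950-124113557, plus) share one receptor gene cluster. Ccr4 (9:114490316-114504916, minus), Ccr8 (9:120092114-120094906, plus) and Cxcr5 (9:44511787-44561877, minus) lie elsewhere on that chromosome, Cxcr4 on chromosome 1 (1:128588199-128592293, minus) and Cxcr3 on chromosome X (X:101731535-101734269, minus). Cxcr6 lies inside Fyco1 and Cxcr5 overlaps Bcl9l, each on the opposite strand, and the Ccr9 locus overlaps 6 other annotated genes, so reads there depend on how the counting used strand. No 2 of the 9 genes shared a run of 50 exon bases.

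The promoters of Ccr3 and Ccr4 are shown because both genes were found together with Ccr2 in single cells, and that of Ccr8 because it was found with Ccr2 in 1 PPARg-low cell. Each is the 250 bases before the RefSeq start (GRCm38.p6), printed along the gene's strand, and capitals mark matches to the motifs searched on both strands. The RefSeq starts of Ccr2, Ccr4 and Ccr8 lie inside the GENCODE genes, and 233, 18 and 19 of the 250 bases are in annotated exons; for Ccr3 it is 0.
Ccr3, chr9:124021721-124021970, plus: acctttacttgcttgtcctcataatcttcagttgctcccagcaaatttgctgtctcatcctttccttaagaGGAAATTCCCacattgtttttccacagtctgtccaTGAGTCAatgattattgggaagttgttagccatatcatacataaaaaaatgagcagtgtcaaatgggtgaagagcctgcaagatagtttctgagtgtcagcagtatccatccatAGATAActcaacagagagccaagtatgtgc
Ccr4, chr9:114496545-114496794, minus: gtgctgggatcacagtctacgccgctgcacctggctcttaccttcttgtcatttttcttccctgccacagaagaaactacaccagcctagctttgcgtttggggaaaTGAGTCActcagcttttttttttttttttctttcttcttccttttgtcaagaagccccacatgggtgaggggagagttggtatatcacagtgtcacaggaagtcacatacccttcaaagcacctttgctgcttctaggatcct
Ccr8, chr9:120091883-120092132, plus: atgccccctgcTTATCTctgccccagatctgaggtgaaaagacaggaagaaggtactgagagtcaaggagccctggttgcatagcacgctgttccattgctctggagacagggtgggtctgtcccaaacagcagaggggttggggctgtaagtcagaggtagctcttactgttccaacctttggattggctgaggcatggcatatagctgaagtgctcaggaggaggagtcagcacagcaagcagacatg
The AP-1 motif TGANTCA stood at positions -144 to -138 from the start in Ccr3 and at -143 to -137 in Ccr4, and 6.75% of all 32851 mouse promoters of this length held it. Ccr3 also held the NF-kappaB motif at -179 to -170 (0.283% of all promoters) and the GATA motif AGATAA at -30 to -25. AGATAA was also found in Ccr2 and Ccr8, at -97 to -92 and -239 to -234, the Ccr2 window being mostly exon, and 9.99% of all promoters held it. The matches did not overlap each other, and these windows of the 8 receptors in the RefSeq table (all but Cxcr5) held neither the T-box letters AGGTGTGA (1.12% of all promoters) nor the KLF letters CCACACCC (3.20%). A match is a stretch of letters and says nothing of binding.

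Over all cells, the PPARg-low library had 5 of the 9 receptors higher and 2 lower. This compares with 24.2% of all 9224 measured genes higher and 4.47% lower by the same rule. The median ratio of the 9 receptors was 1.99, beside 1.22 (log2 0.29) for all 9224 genes. Relative to that median of all genes, 5 receptors were again called higher and 2 lower. Summed over the 9 receptors, the level was 433 CPM in the PPARg-low and 213 in the PPARg-negative library.

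Among the receptors of inflamed and barrier tissue, Ccr8 and Cxcr6 differed most. Ccr8 had 208 UMIs (71.7 CPM) in the PPARg-low and 21 (3.56 CPM) in the PPARg-negative library, a ratio of 20.1 (12.8 to 33.2). Cxcr6 had 87 UMIs (29.98 CPM) in PPARg-low against 25 (4.24 CPM) in PPARg-negative cells, a ratio of 7.07 (4.49 to 11.5). Ccr8 was thus the third most abundant of the 9 in the PPARg-low library and the last in the PPARg-negative one. Ccr3 followed with 122 UMIs (42.0 CPM) in PPARg-low against 58 (9.84 CPM) in PPARg-negative cells, a ratio of 4.27 (3.10 to 5.95).

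Cxcr3 had 333 UMIs (115 CPM) in the PPARg-low and 336 (57.0 CPM) in the PPARg-negative library, a ratio of 2.01 (1.73 to 2.35). Cxcr4 had 104 and 106 UMIs, which are 35.8 and 18.0 CPM, and a ratio of 1.99 (1.51 to 2.64). Both were called higher. Ccr2 and Ccr4 were not called: Ccr2 had 269 UMIs (92.7 CPM) in PPARg-low against 372 (63.1 CPM) in PPARg-negative cells, a ratio of 1.47 (1.25 to 1.72). Ccr4 had 95 UMIs (32.7 CPM) in PPARg-low against 141 (23.9 CPM) in PPARg-negative cells, a ratio of 1.37 (1.04 to 1.79).

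The receptors of the follicle and the small intestine were the 2 that were lower. Ccr9 had 6 UMIs (2.07 CPM) in the PPARg-low and 104 (17.6 CPM) in the PPARg-negative library, 8.53-fold lower (3.79 to 23.8). Cxcr5 had 31 UMIs (10.7 CPM) in PPARg-low against 96 (16.3 CPM) in PPARg-negative cells, 1.52-fold lower (1.01 to 2.36). The Cxcr5 call was lost with all deposited barcodes kept, where its ratio was 0.719 (0.496 to 1.025), and with 500 or more genes required per cell, where it was 0.691 (0.434 to 1.07). Ccr9 and Cxcr6, 22.1 kb apart on chromosome 9, differed in opposite directions. Ccr1, in the same gene cluster but not among the 9, was 4.97-fold higher (2.20 to 12.3).

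**Figure D1:**
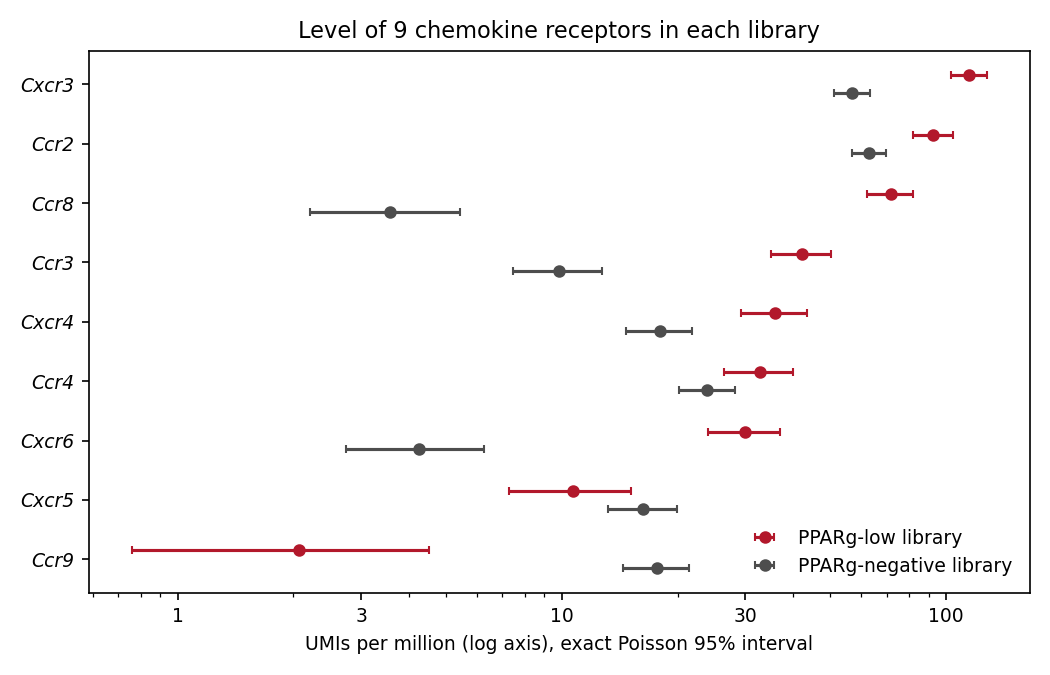
CPM (log axis) of each receptor in the PPARg-low library (red, above) and the PPARg-negative library (grey, below), with exact Poisson 95% intervals. Cxcr3 and Ccr2 lead in both libraries, while Ccr8 stands at 71.7 in the PPARg-low and 3.56 in the PPARg-negative library.

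Since a 3′ library takes its tags near the transcript's end, the levels of different genes were set side by side without division by length. In the PPARg-low library the order was Cxcr3, Ccr2, Ccr8, Ccr3, Cxcr4, Ccr4, Cxcr6, Cxcr5 and Ccr9. The intervals of neighbours overlapped narrowly for Cxcr3 and Ccr2 and for Ccr2 and Ccr8, and they overlapped throughout the run from Ccr3 to Cxcr6. In the PPARg-negative library the order was Ccr2, Cxcr3, Ccr4, Cxcr4, Ccr9, Cxcr5, Ccr3, Cxcr6 and Ccr8. There Ccr2 overlapped with Cxcr3, neighbours in the run from Ccr4 to Cxcr5 overlapped, and so did Cxcr6 and Ccr8.

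The levels of 7 receptors were higher in ribosome-poor than in ribosome-rich cells of each library, with intervals above 1. The share of all genes that were higher in this way was not taken, so the count of 7 has nothing to be set against. The CPM totals include ribosomal protein UMIs, which are by definition a smaller part in ribosome-poor cells. How much this scaling adds to the ratios was not tested. Cxcr5 was so in the PPARg-negative library, at 3.29 (2.04 to 5.18), but not in the PPARg-low one, at 0.956 (0.423 to 2.07), and Ccr9 went the other way in the PPARg-negative library. Ccr2 had 186 CPM in ribosome-poor and 30.9 in ribosome-rich PPARg-low cells, a ratio of 6.03 (4.45 to 8.28), and 428 against 17.4 in PPARg-negative cells, a ratio of 24.7 (19.4 to 31.6). Ccr3 and Cxcr6 had ratios of 6.18 (3.92 to 10.1) and 5.80 (3.41 to 10.4) in the PPARg-low and of 43.5 (21.1 to 101) and 31.95 (11.6 to 109) in the PPARg-negative library. Ribosome-poor cells held 11.1% of all PPARg-negative UMIs but 84.5% of those of Ccr3 and 75.5% of those of Ccr2. Of the 104 PPARg-negative Ccr9 UMIs, 3 came from ribosome-poor cells (2.88%), a ratio of 0.237 (0.0481 to 0.713), while all 6 PPARg-low Ccr9 UMIs came from ribosome-poor cells.

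Because ribosome-poor cells were more frequent in the PPARg-low library, the difference between libraries was also taken within each kind of cell. Among ribosome-rich cells 6 of the 8 receptors with 30 or more UMIs there were higher and 1, Ccr9, lower (17.2 and 3.92% of 8564 genes). Cxcr6 was under that minimum, with 18 and 5 UMIs and a ratio of 10.8 (3.86 to 37.2). Ccr9 had 0 UMIs in ribosome-rich PPARg-low cells and 101 in ribosome-rich PPARg-negative cells, and the exact interval of the ratio ends at 0.112. Cxcr5 was not called, at a ratio of 0.838 (0.476 to 1.41).

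Among ribosome-poor cells 2 receptors, Ccr8 and Cxcr6, were higher and 3, Ccr2, Ccr4 and Cxcr5, were lower (6.82 and 5.4% of 6540 genes). Ccr8 stood at 127 CPM in ribosome-poor PPARg-low and 18.3 in ribosome-poor PPARg-negative cells, a ratio of 6.96 (3.87 to 13.8), and Cxcr6 at 59.8 and 30.5, a ratio of 1.96 (1.18 to 3.41). Ccr4 stood at 52.8 CPM in ribosome-poor PPARg-low and 142 in ribosome-poor PPARg-negative cells, 2.68-fold lower (1.92 to 3.77). Cxcr5 had 12 and 28 UMIs, 4.11-fold lower (2.02 to 8.86), and Ccr2 was 2.30-fold lower (1.92 to 2.76). Cxcr3, called higher over all cells, had a ratio of 0.707 (0.578 to 0.864) in these cells, and Ccr3 one of 1.14 (0.799 to 1.64). Summed over the 9, the ratio was 1.92 (1.68 to 2.20) in ribosome-rich and 0.733 (0.663 to 0.811) in ribosome-poor cells. Ccr8 was called higher in both kinds of cells; Cxcr6 was called in ribosome-poor cells and was under the minimum count in ribosome-rich cells, where its interval also lay above 1.

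**Figure D2:**
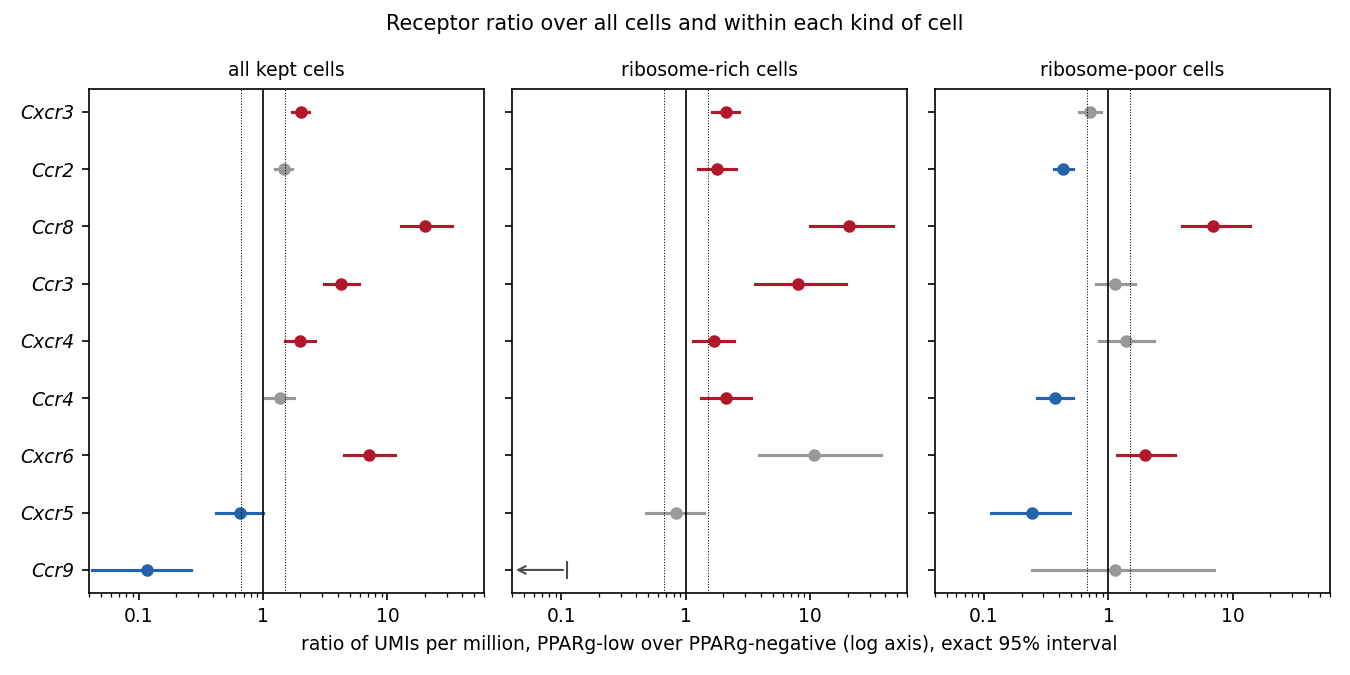
Ratio of CPM, PPARg-low over PPARg-negative (log axis), with exact 95% intervals, over all kept cells (left) and within ribosome-rich (middle) and ribosome-poor cells (right). Red is called higher, blue lower and grey neither (Cxcr6 in the middle panel and Ccr9 in the right one had under 30 UMIs), dotted lines mark a ratio of 1.5 in either direction, and the arrow for Ccr9 starts at its upper bound, since it had 0 PPARg-low UMIs there. Ccr8 and Cxcr6 lie right of 1 in every panel, while Ccr2 and Ccr4 change sides between the middle and the right panel.

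Shares of cells were compared at one depth, after random thinning to 750 UMIs per cell. This kept 1381 PPARg-low and 2394 PPARg-negative cells, and 238 and 239 cells were too shallow. Of the ribosome-poor cells, 721 of 951 PPARg-low and 414 of 614 PPARg-negative cells were deep enough. Any of the 9 receptors was found in 368 PPARg-low cells (26.6%; 24.3 to 29.1%) and in 326 PPARg-negative cells (13.6%; 12.3 to 15.1%). Without thinning the shares were 40.5 and 25.1%. Cxcr3 was found in 8.33% of PPARg-low and 4.26% of PPARg-negative cells, Ccr2 in 6.73 and 4.59%, and Ccr8 in 5.79 and 0.376%. Ccr3 was found in 3.55% of PPARg-low and 0.877% of PPARg-negative cells, Ccr4 in 2.97 and 2.26%, Cxcr4 in 2.75 and 1.504%, and Cxcr6 in 29 of 1381 (1.41 to 3.002%) and 8 of 2394 cells (0.144 to 0.657%). Cxcr5 was found in 0.579% of PPARg-low and 1.38% of PPARg-negative cells.

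Positive cells mostly held a single receptor UMI at this depth. Cells with Cxcr3 held on average 1.33 and 1.45 of its UMIs, and cells with Ccr8 1.06 and 1, in the PPARg-low and PPARg-negative library. Among markers of other spleen cells, Cd79a was found in 0.217% of PPARg-low and 0.0835% of PPARg-negative cells and Lyz2 in 0.0724 and 0.0835%, but Cd79b in 2.68 and 1.84% and Cst3 in 19.6 and 10.7%. The shares of Cxcr6, Cxcr5 and Ccr9 in PPARg-low cells, and of these and Cxcr4, Ccr3 and Ccr8 in PPARg-negative cells, were below that of Cd79b, and no receptor reached that of Cst3. Which of these markers gives the scale of free RNA was not tested. The Ccr9 share in PPARg-low cells, 2 of 1381 (0.145%; 0.0175 to 0.522%), was not above that of Cd79a, against 27 of 2394 (1.13%; 0.745 to 1.64%) in PPARg-negative cells. Within ribosome-poor cells the share with any receptor was 39.1% (35.5 to 42.8%) in the PPARg-low and 44.4% (39.6 to 49.4%) in the PPARg-negative library, and the intervals overlap. Within ribosome-rich cells it was 13.0% (10.6 to 15.8%) in the PPARg-low and 7.17% (6.07 to 8.40%) in the PPARg-negative library, with intervals apart.

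**Figure D3:**
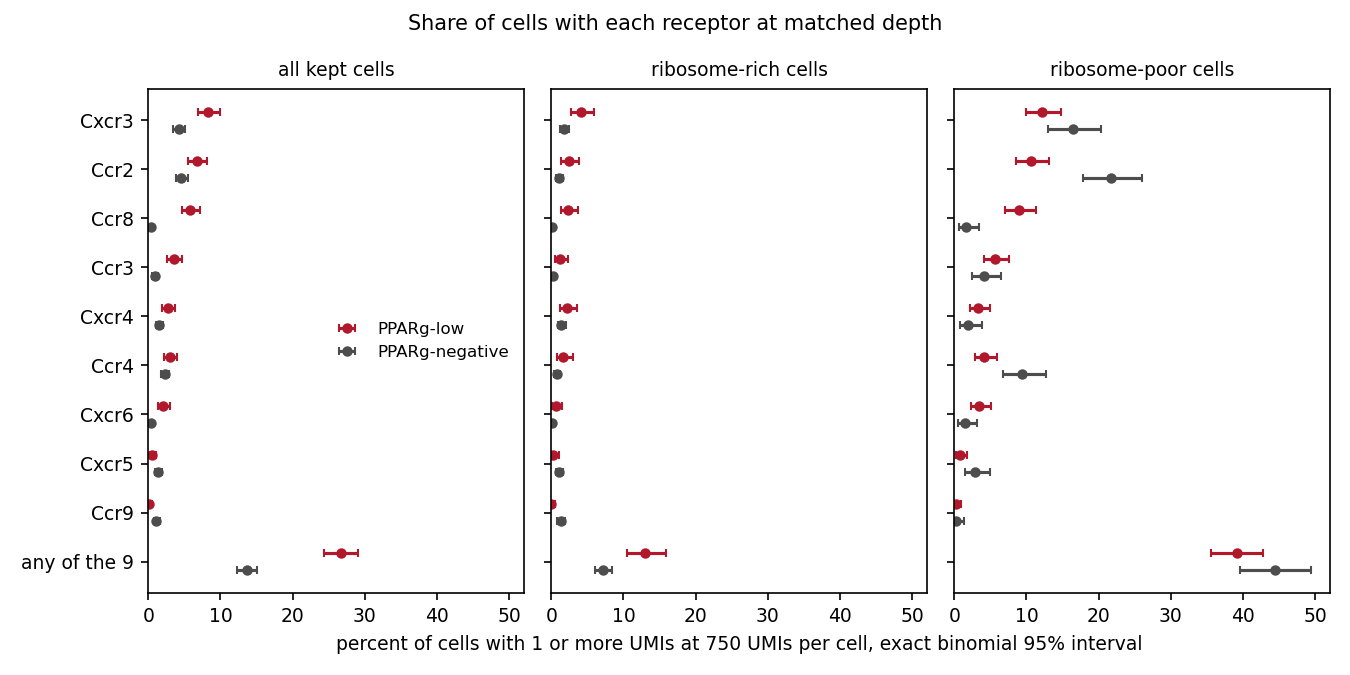
Percent of cells with 1 or more UMIs of each receptor after thinning to 750 UMIs, with exact binomial 95% intervals, in the PPARg-low library (red, above) and the PPARg-negative library (grey, below), for all kept cells and for ribosome-rich and ribosome-poor cells. For any of the 9 the PPARg-low share is the higher one over all cells (26.6 against 13.6%) but not among ribosome-poor cells (39.1 against 44.4%).

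Receptor combinations were then read from the same thinned cells. Among PPARg-low cells 5.79% (4.62 to 7.16%) held 2 or more of the 9 receptors, against 2.55% (1.95 to 3.26%) of PPARg-negative cells. Of the cells with any receptor these were 21.7% (17.6 to 26.3%) in the PPARg-low and 18.7% (14.6 to 23.4%) in the PPARg-negative library. In all, 7 PPARg-low and 13 PPARg-negative cells held 3 receptors and none held 4. Of the 36 possible pairs, 21 were seen among PPARg-low and 16 among PPARg-negative cells. The most frequent combinations were Ccr2 with Ccr3 (15 cells), Ccr2 with Ccr4 (10) and Cxcr3 with Ccr2 or with Ccr8 (8 each) in the PPARg-low library. In the PPARg-negative library they were Cxcr3 with Ccr2 (14 cells), Ccr2 with Ccr4 (12) and Ccr2 with Ccr3 (5).

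Ccr3 and Ccr4 were each more frequent in cells with Ccr2 than in cells at 0 for it, in each library. Ccr3 was found in 19 of 93 Ccr2-positive PPARg-low cells (20.4%; 12.8 to 30.1%) and in 2.33% of those at 0 for Ccr2 (1.58 to 3.31%). In PPARg-negative cells it was found in 11 of 110 Ccr2-positive cells (10%; 5.10 to 17.2%) and in 0.438% of the others (0.210 to 0.804%). Ccr4 was found in 11.8% of Ccr2-positive (6.05 to 20.2%) and 2.33% of Ccr2-zero PPARg-low cells, and in 14.5% (8.55 to 22.5%) and 1.66% (1.18 to 2.28%) of such PPARg-negative cells. The intervals did not overlap in any of these 4 comparisons. For Ccr4 in PPARg-low cells they did at other settings: 1.56 to 13.8% against 1.15 to 2.53% at 500 UMIs per cell, 3.89 to 18.5% against 2.27 to 4.53% at 1000 UMIs, and 3.706 to 15.9% against 1.85 to 3.707% with Scrublet doublet calls left out.

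The pairing held within ribosome-poor cells alone for Ccr3, at 22.1% of Ccr2-positive and 3.73% of Ccr2-zero PPARg-low cells and at 12.2 and 1.85% of PPARg-negative cells. For Ccr4 it stood at 11.7 and 3.26% in ribosome-poor PPARg-low and at 17.8 and 7.10% in ribosome-poor PPARg-negative cells. Ccr3 and Ccr4 were found together in 1 PPARg-low and 2 PPARg-negative cells. The share with Ccr4 had intervals that overlap between Ccr3-positive and Ccr3-zero cells, at 0.0517 to 10.9% and 2.15 to 4.07% in the PPARg-low and 1.17 to 30.4% and 1.64 to 2.86% in the PPARg-negative library. Cxcr3 was found in 12.9% of Ccr2-positive PPARg-low cells (6.85 to 21.5%) and 8.00% of Ccr2-zero ones (6.57 to 9.61%), which overlap, and in 20% (13.0 to 28.7%) and 3.50% (2.79 to 4.34%) of such PPARg-negative cells, which do not. Within ribosome-poor PPARg-negative cells these shares were 20% (12.3 to 29.8%) and 15.4% (11.7 to 19.8%).

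Ccr8 and Ccr2 were found together in 1 PPARg-low cell. Ccr8 was found in 1 of 93 Ccr2-positive PPARg-low cells (1.08%; 0.0272 to 5.85%) and in 6.13% of Ccr2-zero ones (4.89 to 7.59%). Read the other way, 1 of 80 Ccr8-positive cells (1.25%; 0.0316 to 6.77%) and 7.07% of Ccr8-zero cells (5.74 to 8.60%) held Ccr2. Both pairs of intervals overlap. Within ribosome-poor PPARg-low cells they do not: Ccr8 was found in 1.30% of Ccr2-positive (0.0329 to 7.02%) and 9.94% of Ccr2-zero cells (7.74 to 12.5%). The separation rests on 1 cell with both, and at 2000 UMIs per cell the intervals over all cells overlap again (0.0723 to 14.9% and 6.29 to 11.3%). Without thinning Ccr8 was found in 4.96% of 141 Ccr2-positive PPARg-low cells (2.02 to 9.96%) and 11.5% of Ccr2-zero ones (9.92 to 13.2%). These intervals overlap narrowly. With Cxcr3, the intervals for Ccr8 overlap, at 6.96% of Cxcr3-positive (3.05 to 13.2%) and 5.69% of Cxcr3-zero PPARg-low cells (4.48 to 7.11%).

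**Figure D4:**
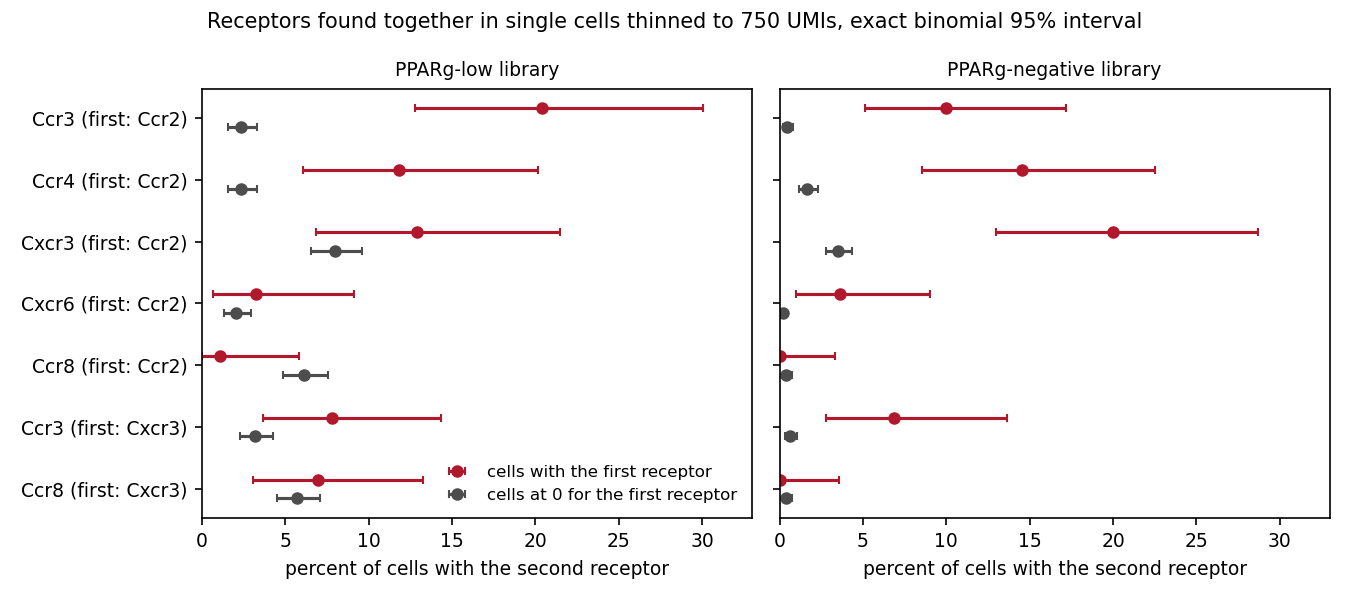
Percent of cells with the second receptor among cells with the first receptor (red, above) and cells at 0 for it (grey, below), at 750 UMIs per cell, with exact binomial 95% intervals, in the PPARg-low (left) and PPARg-negative library (right). Ccr3 and Ccr4 are more frequent in Ccr2-positive cells in each library, and Ccr8 is found in 1.08% of Ccr2-positive and 6.13% of Ccr2-zero PPARg-low cells.

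The genes that went with a receptor were compared between positive and zero cells of the same library, for the 4 receptors with 30 or more positive cells in each. In Ccr2-positive cells 109 of 4166 genes (2.62%) were higher and 25 (0.6%) lower in both libraries. The leading gene was Gzmb, which encodes the cytotoxic protease granzyme B, at 6.24-fold (4.67 to 8.28) in PPARg-low and 9.88-fold (6.88 to 14.0) in PPARg-negative cells. Itgae, the CD103 integrin chain that binds E-cadherin on epithelium, was 6.23-fold (3.36 to 11.1) and 13.6-fold (7.70 to 23.8) higher, and Itgb7, the chain it pairs with, 2.84-fold (2.40 to 3.34) and 3.65-fold (3.06 to 4.32). Vim, the filament protein vimentin, was 3.97-fold and 4.43-fold higher, and Ly6a, the surface protein Sca-1, 3.02-fold and 4.86-fold. These 5 genes led by the rule used for naming.

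Cxcr3-positive cells had 62 genes higher (1.49%) and 6 lower (0.144%) in both libraries. They were led by Ccl5, the chemokine RANTES, at 3.62-fold (2.89 to 4.49) in PPARg-low and 4.402-fold (2.54 to 7.25) in PPARg-negative cells. Ly6a was 2.05-fold and 3.96-fold higher, Nkg7, a cytotoxic granule protein, 2.60-fold and 5.14-fold, the interferon gamma receptor chain Ifngr1 1.85-fold and 2.53-fold, and the lysosomal protease Ctsd 2.18-fold and 2.20-fold. Ly6a was thus among the leading genes of both Ccr2 and Cxcr3.

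Ccr4-positive cells had 22 genes higher (0.528%) and 3 lower (0.072%), led by Gpr107, at 5.03-fold (2.06 to 10.7) in PPARg-low and 5.32-fold (2.05 to 11.7) in PPARg-negative cells. Saraf, a regulator of calcium entry, was 2.87-fold and 2.35-fold higher, the tetraspanin Cd82 2.27-fold and 2.55-fold, Hsd11b1, which regenerates active glucocorticoid, 3.15-fold and 3.65-fold, and Edem1, a factor of protein quality control, 3.75-fold and 4.38-fold. Cxcr4-positive cells had 2 genes higher (0.048%) and 0 lower (0%). The naming rule gave the nuclear RNA Malat1, at 1.26-fold in each library, which is under the ratio for a call, and Zeb1, a transcription factor, at 4.42-fold (1.36 to 11.2) on 5 UMIs and 4.52-fold (1.19 to 12.2) on 4 UMIs. Zeb1 and Taf5l were the 2 called. Taf5l (on 4 and 3 UMIs), B2m and H2-K1 followed, at 4.42-fold, 1.21-fold and 1.09-fold in PPARg-low and 5.46-fold, 1.15-fold and 1.35-fold in PPARg-negative cells.

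Receptor-positive cells were more often ribosome-poor, at 76.6% of PPARg-low cells with any receptor and 43.3% of those with none, and 56.4 and 11.1% of PPARg-negative cells. Within ribosome-poor cells the genes higher in both libraries numbered 19 for Ccr2, 3 for Cxcr3, 1 for Ccr4 and 0 for Cxcr4, of 1477 tested. There Gzmb was 4.15-fold and 1.58-fold (1.01 to 2.42) higher in Ccr2-positive cells, Itgae 4.56-fold and 3.05-fold, and Vim 3.66-fold and 2.52-fold, in the PPARg-low and PPARg-negative library. Ccl5 was 2.69-fold and 2.85-fold higher in ribosome-poor Cxcr3-positive cells.

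Ccr8-positive cells were frequent enough only in the PPARg-low library, with 80 cells against 9 in the PPARg-negative one. They held 8.96 UMIs of the effector Treg markers per cell and 0.388 of the resting Treg markers, beside 4.17 and 0.585 in PPARg-low cells with no receptor. Among those markers, picked here after their values were seen, Il10, a suppressive cytokine, had 25 UMIs in the 80 Ccr8-positive and 70 in the 1301 Ccr8-zero cells, 5.81-fold higher (3.52 to 9.29). Lag3 and Pdcd1, which encode inhibitory receptors, were higher by 3.43-fold (2.31 to 4.96) and 2.12-fold (1.62 to 2.73), and Tnfrsf9, a costimulatory receptor, by 2.81-fold (2.44 to 3.23).

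Ccr2-positive PPARg-low cells had the opposite sign for these 4 genes, but not for Gzmb and Itgae of the same list. They held 5.27 UMIs of the effector markers per cell, beside 4.17 in PPARg-low cells with no receptor, and 5.86 beside 6.57 among ribosome-poor cells. Lag3 was at 0.210 (0.0429 to 0.622), Pdcd1 at 0.436 (0.256 to 0.695) and Tnfrsf9 at 0.462 (0.345 to 0.608) of the level in Ccr2-zero cells. Il10 stood at 0.147 (0.00369 to 0.841) there, on 1 UMI. Gzmb, the leading gene of Ccr2-positive cells, was at 0.282 (0.0761 to 0.731) in Ccr8-positive cells. Klf2, a transcription factor of quiescent T cells, was at 0.330 (0.132 to 0.687) in Ccr8-positive and 2.03-fold higher (1.45 to 2.78) in Ccr2-positive PPARg-low cells. Within ribosome-poor PPARg-low cells Il10 was 4.11-fold (2.44 to 6.70) and Lag3 2.60-fold (1.74 to 3.79) higher in Ccr8-positive cells, and Lag3 was at 0.149 (0.0305 to 0.444) in Ccr2-positive cells.

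In the PPARg-negative library Klf2 and Tnfrsf9 had the other sign: Klf2 was at 0.540 (0.394 to 0.724) in Ccr2-positive cells, and Tnfrsf9 was 1.99-fold higher (1.33 to 2.89), though at 0.644 (0.411 to 0.974) within ribosome-poor cells. Lag3, on 2 UMIs, had a ratio of 1.15 (0.135 to 4.48) there. Whether the libraries differ in this was not tested. The 27 Ccr9-positive PPARg-negative cells held 3.04 UMIs of the resting Treg markers and 0.296 of the effector Treg markers per cell, beside 2.11 and 0.584 in PPARg-negative cells with no receptor, and 1 of them was ribosome-poor (3.70%; 0.0937 to 19.0%).

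Clusters drawn without the 9 receptors placed them in different cell states. Of 9 clusters, cluster 0 was resting Treg-like (led by Dapl1, Ly6c1 and Igfbp4) and cluster 3 effector Treg-like (led by Il10, Ccl4 and Il1r2). Cluster 7 was led by cell cycle genes and Gzmb, although only 35.9% of its PPARg-low and 33.3% of its PPARg-negative cells had a UMI of a cycling marker. The other clusters were not named: cluster 1 was led by Atp6v0d2, Ccl5 and Il18r1, cluster 2 by Trf, Fos and Epcam, and cluster 5 by Tbc1d4, Gsta4 and Id3. Clusters 2 and 3 were mostly PPARg-low and clusters 0, 4, 6 and 8 mostly PPARg-negative cells, where library and state cannot be told apart. Cluster sizes were not compared between libraries.

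Cluster 3 held 67.7% of all Ccr8 UMIs (61.2 to 73.7%) beside 10.2% of all UMIs, at 174 Ccr8 CPM in its PPARg-low cells. Of its 155 Ccr8 UMIs, 146 came from its 439 PPARg-low cells and the rest from its 39 PPARg-negative cells. The Ccr8 level in those 39 cells was not taken, so these counts do not compare the libraries within cluster 3. At a Leiden resolution of 0.5 a single cluster held 91.7% of Ccr8 UMIs. There Ccr8 had 100 CPM (86.9 to 116) in PPARg-low and 49.9 CPM (27.3 to 83.7) in PPARg-negative cells. Cluster 7 held 4.76% of all UMIs but 47.2% of those of Ccr3 (39.8 to 54.8%) and 42.0% of those of Cxcr6 (32.7 to 51.7%). Ccr2 had 581 CPM (487 to 688) in its PPARg-low and 691 (577 to 820) in its PPARg-negative cells. Ccr3 had 243 and 154 there, and Cxcr6 134 and 85.0. Cluster 1 held 43.6% of Cxcr3, 45.9% of Ccr2 and 41.1% of Ccr4 UMIs beside 13.8% of all UMIs. Cxcr5 was highest in cluster 5, at 35.8 CPM in PPARg-low cells against 38.0 CPM in PPARg-negative cells.

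Cxcr4 had 23.3% of its UMIs in its leading cluster, the lowest share of the 9 at this Leiden resolution of 1. That cluster held 10.4% of all UMIs, while Ccr9 had 34.5% of its UMIs in a cluster with 23.6% of all UMIs. At a resolution of 0.5 the lowest share was that of Cxcr5, at 37.0%, against 44.3% for Cxcr4. The cluster of Cxcr5 held 52.2% of all UMIs there and that of Cxcr4 25.4%. Ccr9 had 18.5, 21.1, 33.5 and 39.2 CPM in PPARg-negative cells of clusters 0, 4, 6 and 8, the ones mostly of that library. In the 892 PPARg-negative cells of cluster 0, Ccr8, Ccr3 and Cxcr6 had 0 of 2051339 UMIs, which at a limit of 3 counts allows up to 1.46 CPM.

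Clusters 1, 5 and 7 held cells of both libraries and allowed the libraries to be set side by side within a state, here with no minimum count. Ccr4 was lower in PPARg-low cells of cluster 7, at 65.0 against 218 CPM in PPARg-negative cells, a ratio of 0.299 (0.154 to 0.551), and Cxcr3 too, at 0.608 (0.396 to 0.929). In cluster 1 Ccr2 had a ratio of 0.550 (0.419 to 0.715), Ccr3 one of 1.995 (1.09 to 3.70) and Cxcr6 one of 5.49 (1.45 to 30.6) on 11 and 3 UMIs. In cluster 5 Ccr8 had 11 PPARg-low and 3 PPARg-negative UMIs, a ratio of 6.41 (1.69 to 35.8). How far the marker differences inside that cluster enter this ratio was not tested. The other ratios in these clusters did not meet the rule for a call, among them Ccr2 and Ccr3 in cluster 7, at 0.841 (0.656 to 1.08) and 1.58 (0.989 to 2.56).

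**Figure D5:**
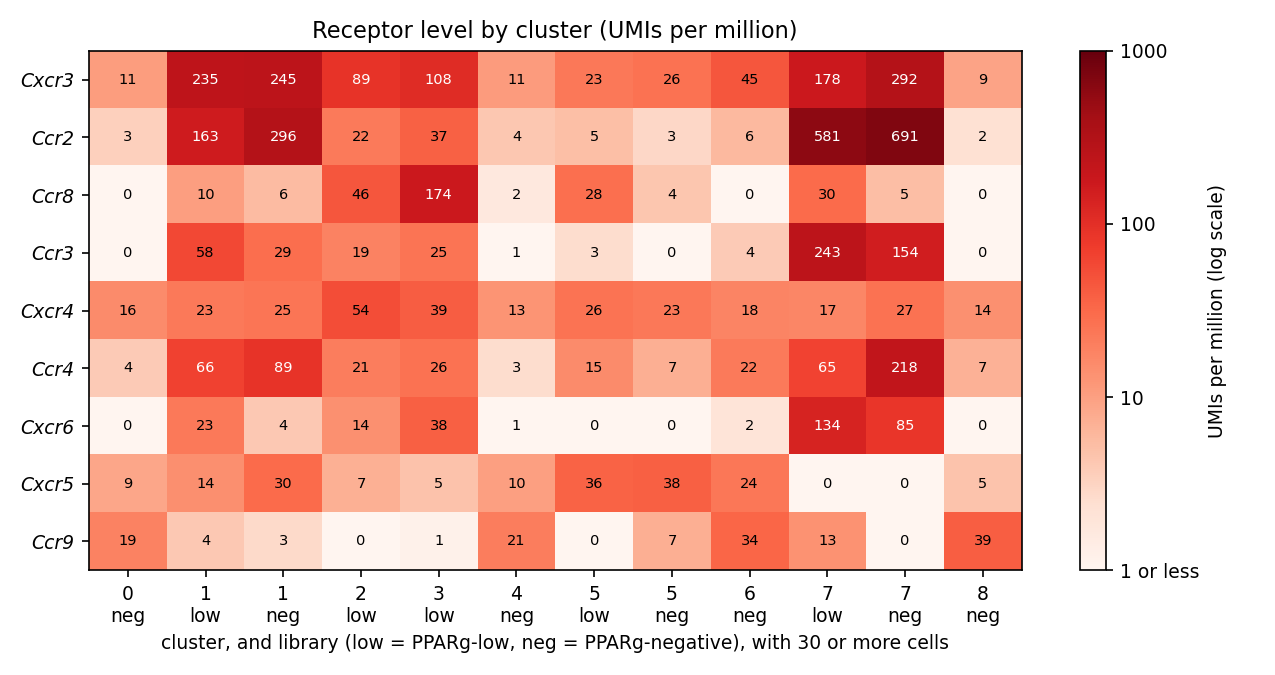
CPM of each receptor (rows) by cluster and library (columns, PPARg-low left of PPARg-negative). Smaller columns are left out, although the axis title gives a limit of 30 cells. Among those left out are the PPARg-negative cells of cluster 2 (43 cells) and cluster 3 (39 cells). Colour is on a log scale and the number in each field is the level. Ccr8 peaks at 174 in cluster 3, Ccr2 at 581 and 691 in cluster 7 and Cxcr5 at 35.8 and 38.0 in cluster 5.

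The other parts of the chemokine system were read from 5 gene lists, against the same 24.2% higher and 4.47% lower over all genes. Of 11 measured other chemoattractant receptors 6 were higher and 2 lower. Ccr7, the lymph node homing receptor, had 18.3 CPM in the PPARg-low and 163 in the PPARg-negative library, 8.95-fold lower (6.79 to 12.0). Ltb4r1, a leukotriene receptor, was 6.45-fold higher (4.60 to 9.19). Ccrl2, which binds chemerin, was 5.78-fold higher (4.32 to 7.81), and the prostaglandin receptor gene Ptger4 2.67-fold (2.26 to 3.15). Within ribosome-poor cells 2 of 10 measured genes of this list were higher and 4 lower, with a median log2 ratio of -0.32. Of all 6540 genes measured in ribosome-poor cells 6.82% were higher and 5.4% lower, with a median log2 ratio of 0.02. Ptger4 was not called there, at 1.12 (0.869 to 1.45), and Ltb4r1 was 1.54-fold higher (1.06 to 2.29).

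Of 18 chemokine ligands in the files 6 had 30 or more UMIs, and these were called higher in the PPARg-low library. Ccl1 and Ccl3 reached that minimum through their PPARg-low UMIs, so the count of 6 is no support for a direction, and with 100 or more UMIs 2 were called. Ccl1, a ligand of Ccr8, had 40 UMIs in the PPARg-low and 0 in the PPARg-negative library. Ccl5 had 526 CPM in PPARg-low cells against 58.7 in PPARg-negative cells, a ratio of 8.96 (7.97 to 10.1), Ccl4 had a ratio of 8.59 (5.35 to 14.4) and Ccl3 one of 10.2 (3.82 to 33.99). Within ribosome-poor cells 2 of 4 measured ligands were higher, Ccl5 at 3.88-fold (2.99 to 5.09) and Ccl4 at 2.52-fold (1.55 to 4.26). Cxcl10 and Ccl25 were not called there, at 1.18 (0.573 to 2.59) and 1.09 (0.538 to 2.33), and Ccl1, with 25 and 0 UMIs, was under the minimum. Within ribosome-rich cells 1 of 2 measured ligands, Ccl5, was higher. Over all genes 6.82% were higher within ribosome-poor and 17.2% within ribosome-rich cells.

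Few genes of the shared signalling machinery were called. Of 25 measured receptor signalling genes 2 were higher and 1 lower, with a median log2 ratio of 0.23 beside 0.29 over all genes. Gnaq, a G protein alpha chain, was 4.06-fold higher (2.72 to 6.17) and the Rac activator Prex1 1.95-fold (1.61 to 2.36), while the lipid kinase gene Pik3cd was 1.51-fold lower (1.23 to 1.86) and Tln1, which activates integrins, had a ratio of 1.36 (1.20 to 1.55). Of 11 measured genes of receptor desensitization 5 were higher and 1 lower. The regulators of G protein signalling Rgs16, Rgs2 and Rgs3 were 4.71-fold (3.28 to 6.87), 2.97-fold (2.27 to 3.90) and 1.74-fold (1.37 to 2.20) higher, and Rgs10 was 1.75-fold lower (1.62 to 1.89). Relative to the median ratio of all genes, 2 genes of this list were higher. Rgs10 was called in neither kind of cell, at ratios of 0.688 (0.631 to 0.749) in ribosome-rich and 0.783 (0.625 to 0.982) in ribosome-poor cells, and Rgs3 had a ratio of 0.990 (0.625 to 1.59) in ribosome-poor cells.

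Of 15 measured transcription factors tied to receptor programmes 8 were higher and 3 lower. Gata3, the factor of type 2 T cells, was 3.73-fold (3.41 to 4.07), Maf 3.67-fold (3.30 to 4.08) and Batf 3.55-fold (3.22 to 3.93) higher, and Bach2, which holds T cells in a resting state, was 7.08-fold lower (4.04 to 13.5). Over the 5 lists 27 genes were higher and 7 lower, or 22 and 12 relative to the median ratio of all genes. Within ribosome-poor cells, Gata3 and Batf were 2.95-fold (2.46 to 3.55) and 2.83-fold (2.22 to 3.65) higher, while Maf had a ratio of 1.17 (1.01 to 1.36).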

How the data were processed

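The authors deposited raw UMI counts, as a gene by barcode matrix per library, made with the Chromium Single Cell 3′ v2 kit, per the labels' protocols; Cell Ranger 2.1.0 and mm10 are named in the submitters' processing notes, and the gene annotation used is not given in the sources used here. Members, lists, split of cells and tests were chosen with earlier results of these data known.

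Barcodes above 10% mitochondrial UMIs (373 of the PPARg-low, 269 of the PPARg-negative library) were dropped. Counts were summed per library and scaled to CPM. Ratios have exact conditional binomial, shares exact Clopper-Pearson and levels exact Poisson 95% intervals, for counting error only. A gene at 0 in 1 library entered list medians at a floor of 3 counts. Genes with 30 or more UMIs over both libraries (in the same cells) were measured. The scripts were tested on simulated data. Scrublet marked 11 and 8 kept cells as doublets, which were kept. Clusters used scanpy 1.11.5 and leidenalg 0.10.2 (resolution 1.0) on variable genes without the receptors and without ribosomal, mitochondrial, immunoglobulin and T cell receptor genes, with no batch correction; a name needed 3 of 10 leading genes on its marker list. Intervals came from scipy 1.17.1 and figures from matplotlib 3.10.9, under Python 3.11.15.

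Named genes were the 9 receptors, up to 4 genes per list by the interval bound nearest to 1, and 5 genes per receptor. Those 5 had the highest lower bounds of the ratio, taken from the library where that bound was smaller. Genes of Ccr8-positive cells, of the receptor gene cluster and of ribosome-poor cells were picked with their values known. The alternatives changed the barcode filter, doublets, scaling, weights, minimum counts, thinning depth and clusters.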

Additional observations from a re-analysis of the deposited data

Results flagged for a closer look

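The barcodes left out for their mitochondrial share held 325491 PPARg-low and 217143 PPARg-negative UMIs, and 3 receptors had ratios with intervals above 1 there as well. Ccr8 had 40 UMIs in the PPARg-low and 1 in the PPARg-negative barcodes left out, a ratio of 26.7 (4.52 to 1080). Cxcr6 had 14 and 2 UMIs, a ratio of 4.67 (1.07 to 42.3), and Cxcr4 had 21 and 5, a ratio of 2.80 (1.03 to 9.51). Ccr3, at 8 and 3 UMIs, had a ratio of 1.78 (0.427 to 10.4). Cxcr3, at 45 and 37 UMIs, had a ratio of 0.811 (0.514 to 1.29), Ccr9 had 0 and 5 UMIs, and Ccr2, Ccr4 and Cxcr5 had ratios of 0.375 (0.146 to 0.902), 0.292 (0.102 to 0.750) and 0.434 (0.198 to 0.916). Whether these barcodes are damaged cells was not tested.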

How the results depend on the processing

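No paired analysis was possible because each group is 1 library, and for the same reason no replicate could be left out. Depth limits the shares: each of the 9 receptors was seen in under 10% of thinned cells. Against 5 receptors higher and 2 lower, ribosome-poor cells alone gave 2 higher, and equal weight for both kinds of cells, chosen after seeing the data and judged by size alone, gave 2 higher and 4 lower; Cxcr3 then stood at 0.707 and 0.841, and Ccr9 at 1.14 in ribosome-poor cells. With all barcodes, with 500 genes per cell, in ribosome-rich cells and at a ratio of 2 for a call, 1 receptor was lower. Of the list genes, 17 were higher within ribosome-rich cells and 11 within ribosome-poor cells, against 27, and 12 were lower instead of 7 once ratios were taken against the all-gene median. Over all genes 17.2% were higher within ribosome-rich and 6.82% within ribosome-poor cells, against 24.2% in all cells. Fewer list genes were measured in each kind of cell. The share of cells with any receptor, in PPARg-low and PPARg-negative cells, was 19.8 and 11.7% at 500 UMIs, 33.7 and 17.1% at 2000 UMIs, 40.5 and 25.1% without thinning, 13.0 and 7.17% in ribosome-rich and 39.1 and 44.4% in ribosome-poor cells. With 2 or more receptors it was 3.03 and 1.63% at 500 UMIs, 8.01 and 3.07% at 2000 UMIs, 11.9 and 5.62% without thinning, 1.36 and 0.354% in ribosome-rich and 9.85 and 13.0% in ribosome-poor cells. At 2000 UMIs 97 ribosome-poor PPARg-low and 41 ribosome-poor PPARg-negative cells were left, so the make-up of the cells changed along with depth. Against 195 genes higher in receptor-positive cells, summed over the 4 receptors, ribosome-rich cells gave 14 and ribosome-poor cells 23, with fewer genes tested in each. The median share of a receptor's UMIs in its leading cluster was 42.0%, and 64.4% at a Leiden resolution of 0.5, which gives fewer clusters. Elsewhere the cause of a change was not tested. Ccr3 stayed more frequent in Ccr2-positive than in Ccr2-zero cells at every thinning depth run and without thinning in both libraries, at 8.45 to 24.8% against 1.56 to 3.45% in PPARg-low cells. For Ccr4 the PPARg-low intervals overlapped at 500 and 1000 UMIs and with Scrublet calls left out. In ribosome-rich PPARg-negative cells Ccr3 and Ccr4 were each found in 0 of 20 Ccr2-positive cells (upper bound 16.8%), and in 0.204 and 0.765% of the others.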
